A study of Mus musculus with 8 samples.

Results

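The 10 genes described here encode peptidases that can share substrates with insulin-degrading enzyme: Mme, Ece1, Ece2, Thop1, Nln, Prep, Dpp4, Dpp9, Lnpep and Anpep. Their rows were found by symbol, and 8 of the 10 had a named row among 19494 named genes on the array. Ece2 and Lnpep were not analysed here. Messenger RNA of mouse alphaTC1.9 cells, a pancreatic alpha cell line grown from a glucagon-producing tumour, was measured on Clariom S arrays, which summarise short probes into 1 log2 expression value per transcript. The design set 4 control arrays against 4 arrays from cells whose Ide mRNA had been targeted by a small interfering RNA (IDE-KD). Both groups grew in 16 mM glucose, and no further treatment is named. The sources used here do not say how the control cells were treated, how long after knockdown the cells were taken or whether they were a clone. The labels call the arrays biological replicates and do not say that they came from separate cultures, so the p-values measure only sample-to-sample spread, which may be technical.

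Small peptides such as hormones and neuropeptides are ended by peptidases that sit on the cell surface, in the secretory pathway or in the cytosol, and most peptides can be cut by several of them. Neprilysin and the endothelin-converting enzymes are membrane zinc metallopeptidases of the M13 family. Thimet oligopeptidase and neurolysin are zinc oligopeptidases of the M3 family. Prolyl oligopeptidase and the dipeptidyl peptidases are serine peptidases of the S9 family that cut at or near proline, and the M1 aminopeptidases remove residues from the amino end. Glucagon and GLP-1, both made from the precursor encoded by Gcg, are known substrates of neprilysin, and GLP-1 is the classical substrate of dipeptidyl peptidase 4.

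Ide, the targeted gene, was between 8.48 and 8.72 on the control arrays and between 7.91 and 8.14 on the IDE-KD arrays, with no overlap, which is 1.53-fold lower (log2 difference -0.62, SE 0.12). In limma its unadjusted p was 0.000164, but its Benjamini-Hochberg adjusted p over all 22142 tested rows was 1.00. The 4 measured alpha cell markers (Gcg, Irx2, Ttr and Slc7a2) were above 4.52, the median of the array's control rows, and Gcg averaged 12.06 in each group, with an SD of 0.07 over the 4 control and 0.10 over the 4 IDE-KD arrays. Of 22 measured markers of beta, delta, PP, stromal, immune, endothelial and exocrine or duct cells, 7 were above that median, and limma called 0 of them at an adjusted p under 0.05 and 3 at an unadjusted p under 0.05 (Nkx6-1 lower, Lum and Cd3e higher), where 4.59% of all rows passed the latter. A level above that median is not by itself detection. Col1a2 passed it but exceeded only 60.1% of the intron control rows, whose probes are not aimed at mature mRNA. Ttr exceeded 86.0% of the intron control rows, and the beta cell marker Nkx6-1 93.3%. IDE-KD arrays 1 and 3 had the narrowest spread of values (an SD over all tested rows of 2.16 and 2.13, where the other 6 had 2.20 to 2.25) and the lowest mean of the intron control rows (4.20 on both, against 4.25 to 4.38). The mean of the exon minus that of the intron control rows was smaller on arrays 1 and 3 in both groups. It was 2.74 and 2.71 against 2.78 and 2.79 on control arrays 2 and 4. In IDE-KD it was 2.76 and 2.72 against 2.85 and 2.84. Across groups, deviations from the group means correlated positively within arrays 1 and 3 and within arrays 2 and 4 (0.025 to 0.209). All other pairs were negative (-0.225 to -0.048). The part of IDE-KD arrays 1 and 3 in the results below was not tested beyond leaving them out, with all control arrays kept.

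None of the peptidase genes moved past the threshold when Ide was lowered. limma called 0 of the 8 measured members at an adjusted p under 0.05, against a background of 0% of all tested rows, and the smallest adjusted p over all rows was 1.00. At an unadjusted p under 0.05, 1 of the 8 was lower (Dpp9), where 1.91% of all rows were lower at that level, and 0 were higher, where 2.69% of all rows were. The groups did not overlap at 0 of the 8 members, against 2.8% of all rows. By sign, 7 members were lower and 1 was higher (Nln), where 47.9% of all rows were lower. Above the median control row, 5 of 6 members were lower, where 6957 of 12616 rows were. No member was past a 1.5-fold change, as 0.19% of all rows were. Their median log2 difference was -0.078, against 0.0074 over all rows and -0.017 over the 12616 rows above the median control row. The 95% confidence interval excluded a 1.5-fold change in either direction at 7 of the 8 members, the exception being Mme, against 83.6% of all rows. It excluded a 2-fold change at all 8. These counts include Dpp4 and Mme, near background, where a narrow interval does not bound a change in the mRNA. Of the 6 members above the median control row, all 6 excluded a 1.5-fold change, against 11295 of the 12616 rows above it.

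**Figure D1:**
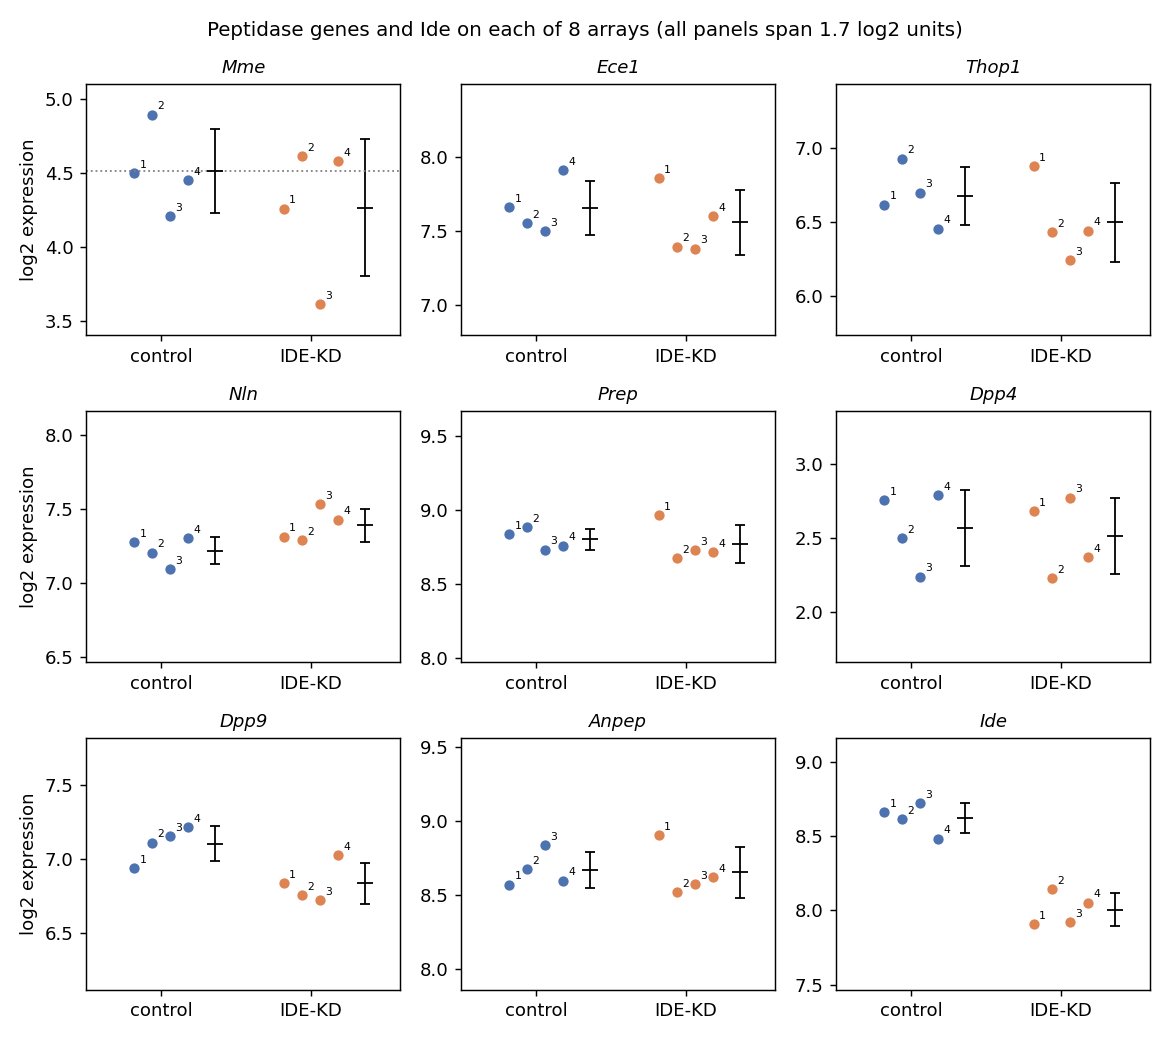
Log2 expression of the 8 measured peptidase genes and Ide, 1 panel per gene and 1 point per array, with the replicate number beside each point; bars are the mean ± SD of 4 arrays, and the dotted line in the Mme panel is the median array control row at 4.52. The groups overlap in every peptidase panel and separate in the Ide panel (8.48 to 8.72 against 7.91 to 8.14).

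The start regions of 3 members are printed because these members bracket the data: Dpp9 had the lowest fitted difference, Nln the only positive one, and Dpp4 was the member nearest the array's background. Each is the stretch of 250 bases before an annotated start, from RefSeq on build GRCm38.p6, written 5′ to 3′ on the gene's own strand, which is the minus strand for all 3. Capitals mark matches, on either strand, to GGGCGG (the GC box), CCAAT (the CCAAT box) and TATAAA, which do not overlap one another here.
Dpp9, chr17:56218890-56219139: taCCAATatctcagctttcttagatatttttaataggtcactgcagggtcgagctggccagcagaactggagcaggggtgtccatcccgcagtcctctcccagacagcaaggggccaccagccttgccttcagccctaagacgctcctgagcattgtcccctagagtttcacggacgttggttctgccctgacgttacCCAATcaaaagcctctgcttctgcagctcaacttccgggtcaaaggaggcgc
Nln, chr13:104109615-104109864: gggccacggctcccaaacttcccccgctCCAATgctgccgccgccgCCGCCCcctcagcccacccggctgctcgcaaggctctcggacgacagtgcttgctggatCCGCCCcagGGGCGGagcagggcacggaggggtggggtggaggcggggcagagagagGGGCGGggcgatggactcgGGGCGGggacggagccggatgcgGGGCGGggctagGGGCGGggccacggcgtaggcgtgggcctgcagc
Dpp4, chr2:62412232-62412481: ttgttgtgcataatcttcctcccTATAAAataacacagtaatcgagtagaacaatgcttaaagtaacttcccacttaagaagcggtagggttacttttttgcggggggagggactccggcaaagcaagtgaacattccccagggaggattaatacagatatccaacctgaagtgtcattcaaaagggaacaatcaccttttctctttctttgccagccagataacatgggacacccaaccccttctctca
The Nln region held 7 GC box matches and 26 CG pairs, the Dpp9 region 0 GC box matches and 8 CG pairs, and the Dpp4 region 0 GC box matches and 4 CG pairs, against a median of 6 CG pairs over 32851 start regions of the same length. Dpp9 had 2 CCAAT matches, the nearer beginning 52 bases before the start. The TATAAA match of Dpp4 began 227 bases before it. Of all start regions, 32.7% held a GC box match, 33.8% a CCAAT match and 12.4% a TATAAA match. Members with negative differences that are not printed also had regions above that median, such as Anpep (23 CG pairs, 3 GC box matches) and Thop1 (17 CG pairs, 1 GC box match). A match is a description of the letters only, and the arrays do not show which start the cells used.

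Among the M13 enzymes, Mme, which encodes neprilysin, gave a low signal. In array order it read 4.50, 4.90, 4.21 and 4.45 in control cells, then 4.26, 4.61, 3.62 and 4.58 after knockdown. The levels were on either side of the median control row and above 55.2% of the array's intron control rows, so the signal was close to that of probes not aimed at mature mRNA. IDE-KD array 3 lay below the other 7 arrays, which otherwise overlapped freely. The means were 4.51 ± 0.28 and 4.27 ± 0.46 (SD, n = 4), and the fitted difference of -0.25 (SE 0.21, 95% confidence interval -0.71 to 0.22) had an exact two-sided permutation p of 0.486. Without IDE-KD replicate 3 the difference was -0.028, so most of it rested on that array. Without IDE-KD arrays 1 and 3 it was 0.085. That fit kept control arrays 1 and 3, which shared a pattern with the arrays left out. Whether the change of sign came from this unequal set of arrays was not tested.

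Ece1, which encodes endothelin-converting enzyme 1, the enzyme that cuts big endothelin to its active form, was clearly detected. Its control arrays read 7.66, 7.55, 7.50 and 7.91 and its IDE-KD arrays 7.86, 7.40, 7.38 and 7.60. The highest arrays of both groups were close to each other, and the groups overlapped over most of their range. The log2 difference was -0.099 (SE 0.14, 95% confidence interval -0.41 to 0.21), within the spread between replicates (exact two-sided permutation p = 0.514). A rise of more than 1.16-fold and a fall of more than 1.33-fold lay outside its interval. The difference was -0.014 without control replicate 4 and -0.20 without IDE-KD replicate 1.

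The M3 oligopeptidases, Thop1 and Nln, had fitted differences of opposite sign. Thop1 encodes thimet oligopeptidase, a mainly cytosolic enzyme that trims short peptides. It read 6.62, 6.93, 6.70 and 6.45 in control and 6.87, 6.43, 6.24 and 6.44 in IDE-KD cells. The 3 IDE-KD arrays other than array 1 lay below all control arrays, while IDE-KD array 1 was above 3 of the 4. The log2 difference was -0.18 (SE 0.16, 95% confidence interval -0.51 to 0.16; exact two-sided permutation p = 0.257), and it was -0.30 without IDE-KD replicate 1, -0.092 without IDE-KD replicate 3 and -0.093 without control replicate 2.

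Nln encodes neurolysin, an oligopeptidase named for its cleavage of neurotensin. Its control arrays read 7.28, 7.21, 7.10 and 7.30 and its IDE-KD arrays 7.31, 7.29, 7.54 and 7.43. All 4 IDE-KD arrays were above the control mean of 7.22 ± 0.09 (SD, n = 4), and the groups overlapped only where control array 4 stood above IDE-KD array 2. The log2 difference was 0.17 (SE 0.12, 95% confidence interval -0.080 to 0.42), a 1.13-fold higher level. Permuting the 8 arrays exactly, two-sided, gave p = 0.0571, where 4 against 4 arrays allow no less than 0.0286. In limma its unadjusted p was 0.164, rank 3457 of 22142 rows, and its adjusted p was 1.00. Leaving out 1 array at a time gave 0.12 to 0.21.

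Whether the related enzymes changed by different amounts was tested on the per-array difference of their log2 values. Of 4 planned pairs, 2 could be compared. Thop1 minus Nln went from -0.55 ± 0.26 in control to -0.90 ± 0.35 in IDE-KD cells (SD, n = 4), a change of -0.35 (SE 0.22), and the groups overlapped. The exact two-sided permutation p was 0.143, or 0.286 after Benjamini-Hochberg adjustment over both pairs. Dpp4 minus Dpp9 changed by 0.21 (SE 0.23; exact permutation p = 0.4, adjusted 0.4), a value that rests on the dim signal of Dpp4.

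In the S9 family, Dpp9 had the smallest p of the members. It encodes dipeptidyl peptidase 9, a cytosolic enzyme that also restrains the NLRP1 inflammasome. It read 6.93, 7.11, 7.15 and 7.21 on control arrays, and 6.83, 6.76, 6.72 and 7.02 on IDE-KD arrays. All 4 IDE-KD arrays lay below the control mean of 7.10 ± 0.12 (SD, n = 4), and the groups touched only where IDE-KD array 4 stood above control array 1. The IDE-KD mean was 6.83 ± 0.14 (SD, n = 4), which is 1.20-fold lower. On the log2 scale this is -0.27 (SE 0.12), with a 95% confidence interval of -0.53 to -0.0051. The unadjusted limma p was 0.0463, rank 946 of 22142 rows, the adjusted p was 1.00 and the exact two-sided permutation p was 0.0571. The difference was -0.33 to -0.23 with 1 array left out at a time and -0.21 without IDE-KD arrays 1 and 3, always negative, with adjusted p-values between 0.772 and 1.00 over all the alternatives run.

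Dpp4, which encodes the membrane-bound dipeptidyl peptidase that inactivates GLP-1, was at the array's background. Its values ran from 2.24 to 2.79 in control and from 2.23 to 2.77 in IDE-KD cells, nearly the same range. Only 15.3% of the intron control rows were lower, and the median of the array's antigenomic background rows, which match no mouse transcript, was 2.46. A difference was not detectable at this signal, and the fitted value was -0.057 (SE 0.16).

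Prep, which encodes the cytosolic prolyl oligopeptidase, had the narrowest range of the members over all arrays, 0.29 log2 units. It read 8.84, 8.88, 8.73 and 8.76 in control and 8.97, 8.68, 8.73 and 8.72 in IDE-KD cells. The lowest and the highest of these values were both IDE-KD arrays. The log2 difference was -0.032 (SE 0.12, 95% confidence interval -0.28 to 0.22; exact two-sided permutation p = 0.657), and with 1 array left out it ran from -0.096 (without IDE-KD replicate 1) to -0.0001 (without IDE-KD replicate 2).

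Anpep, which encodes aminopeptidase N (CD13), the M1 aminopeptidase of brush borders and of many stromal and myeloid cells, was clearly detected in this alpha cell line. It stood above 98.9% of the intron control rows. It read 8.57, 8.68, 8.84 and 8.60 on control arrays, and 8.91, 8.52, 8.57 and 8.62 after knockdown. IDE-KD array 1 was the highest and IDE-KD array 2 the lowest of all 8. The log2 difference was -0.016 (SE 0.13, 95% confidence interval -0.29 to 0.26; exact two-sided permutation p = 0.857), with its sign turning under 4 of the alternatives (0.0029 to 0.039). The immune markers Ptprc, Cd3e and Itgam and the fibroblast markers Lum and Dcn were all below the median control row, while Col1a1 (5.82) and Col1a2 (4.55) were above it in control cells.

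The intervals bound how far the array signal of the members above the median control row could have moved. Of these, Thop1 stood above 92.9% and Dpp9 above 95.4% of the intron control rows, the lowest shares. The upper limits of the 95% confidence intervals were rises of 1.16-fold for Ece1 and Prep, 1.12-fold for Thop1, 1.20-fold for Anpep and 1.34-fold for Nln, and the interval of Dpp9 lay below 0. The lower limits were falls of 1.33-fold for Ece1, 1.43-fold for Thop1, 1.45-fold for Dpp9, 1.22-fold for Prep and Anpep and 1.06-fold for Nln. These are limits for the processed array signal of mRNA only, and a change in the mRNA itself may have been larger. In such bulk RNA fewer cells making a transcript and less of it per cell cannot be told apart.

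**Figure D2:**
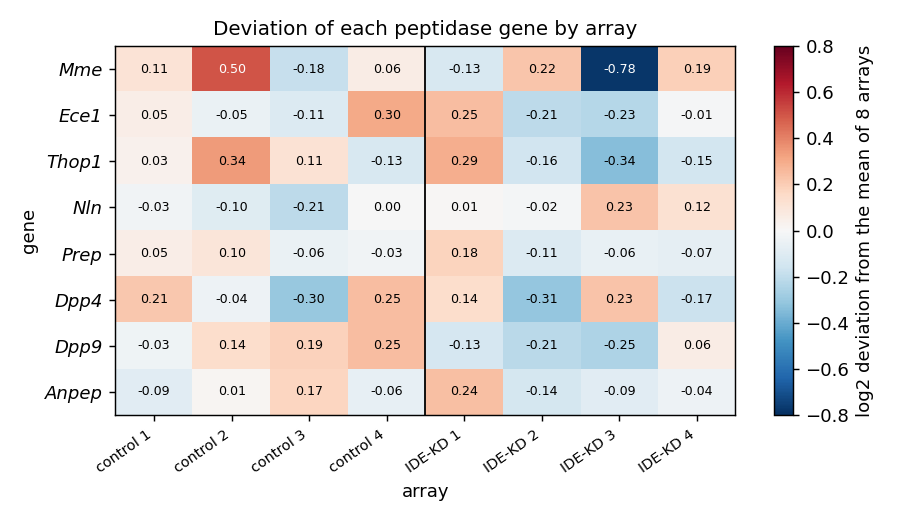
Each cell is the log2 value of a gene on one array minus that gene's mean over all 8 arrays, red above and blue below the mean; the vertical line separates control from IDE-KD arrays. Dpp9 is below its mean on IDE-KD arrays 1 to 3 and Nln at least 0.12 above it on IDE-KD arrays 3 and 4, while IDE-KD array 3 holds the lowest value of 4 members and IDE-KD array 2 that of 3.

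The members did not share one pattern over the arrays. IDE-KD array 3 held the lowest value of Mme, Ece1, Thop1 and Dpp9 and at the same time the highest of Nln. IDE-KD array 2 held the lowest value of Prep, Dpp4 and Anpep. IDE-KD array 1 held the highest value of Prep and Anpep, and control array 4 that of Ece1, Dpp4 and Dpp9. The mean deviation of the 8 members from their control means was 0.060, -0.16, -0.21 and -0.053 on IDE-KD arrays 1, 2, 3 and 4, against -0.094 to 0.067 on the control arrays, so the groups overlapped. The within-group SD of the members ran from 0.10 (Nln) to 0.38 (Mme), around the median of 0.21 over all rows.

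**Figure D3:**
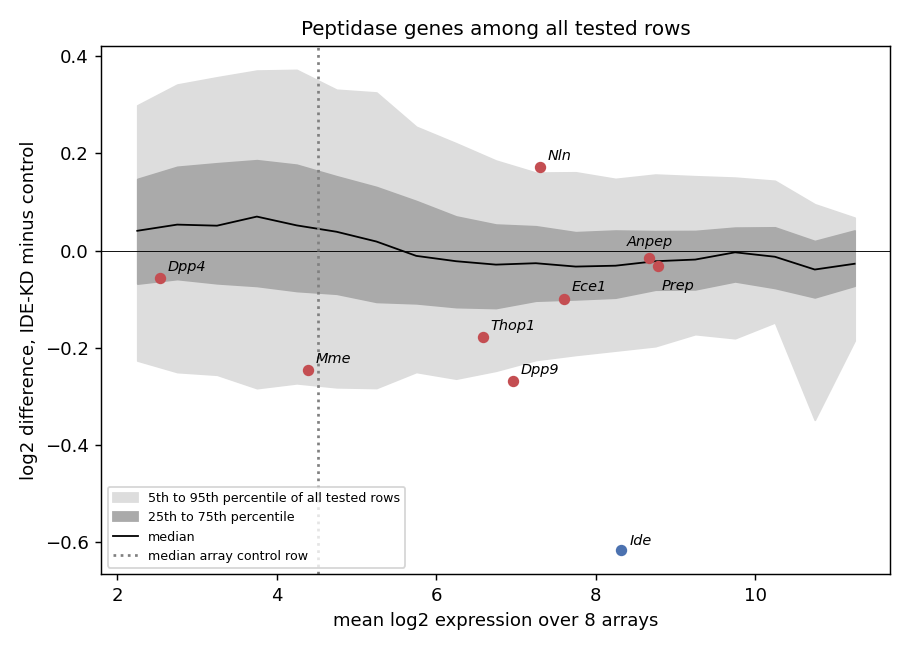
Log2 difference (IDE-KD minus control) against mean log2 expression over 8 arrays, with the 8 peptidase genes in red and Ide in blue over percentile bands of all 22142 tested rows in steps of level. Dpp9 at -0.27 lies below the band of the 5th to 95th percentile of rows at its level and Nln at 0.17 just above it, the other 6 lie inside, and Ide at -0.62 is far below.

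For each member the gene with the most similar profile over the 8 arrays was sought among 11010 named genes above the median control row. Dpp9 was closest to Palld, which encodes the actin-binding protein palladin (Pearson r = 0.964 over 8 arrays), whose own log2 difference was -0.41 (SE 0.14). Nln was closest to the homeobox gene Msx1 (r = 0.950), Thop1 to Ly6h (r = 0.960), Ece1 to the kinase gene Bmp2k (r = 0.972) and Mme to the transcription factor gene Zfhx3 (r = 0.972). Prep was closest to Pdzd4 (r = 0.990), Anpep to Mapk7, the ERK5 gene (r = 0.957), and Dpp4 to Ccn2 (r = 0.966). Such values are ordinary for a search of this size over 8 arrays: the best partner of a searched gene had a median r of 0.969.

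The wider families were described from a list of 46 genes of peptidase families that includes the 10 and of which 42 were measured. Membership goes by family and not by enzyme activity. Dpp6 (-0.046) and Dpp10 (-0.19), counted in the S9 family, are not known to act as peptidases. limma called 0 of the 42 at an adjusted p under 0.05 and 1, Dpp9, at an unadjusted p under 0.05, against 4.59% of all rows. Of the 42, 13 were higher and 29 lower (median -0.052), where 47.9% of all rows were lower. Leaving out the 10 gave 12 higher and 22 lower of 34, with a median of -0.047. Of the 33 genes above the median control row, 23 were lower, where 6957 of the 12616 rows above it were. Their median was -0.046, against -0.017 for all rows above it. The mean deviation of the 42 genes from their control means was -0.033, 0.0077, -0.17 and 0.0063 on IDE-KD arrays 1, 2, 3 and 4 and -0.058 to 0.11 on the control arrays, so that IDE-KD array 3 alone stood below the control range.

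By family, the M13 enzymes were 1 higher and 5 lower of 6 measured, 4 of them below the median control row. The smallest p values belonged to Kel (-0.18, SE 0.15), the Kell blood group metallopeptidase gene, and Mme. Both were among those 4, and Kel was above only 31.4% of the intron control rows. The M3 family held Mipep, a mitochondrial processing peptidase gene, beside Thop1 and Nln, with 2 higher and 1 lower. The S9 family had 1 higher (Apeh, 0.0075) and 8 lower of 9, with a median of -0.10, and 2 of the 9 were below the median control row. Of all rows 47.9% were lower, and of the 12616 rows above the median control row 6957 were. Dpp8, the closest relative of Dpp9 and named here for that after its values were seen, read -0.10 (SE 0.12), and the prolyl oligopeptidase-like gene Prepl -0.18 (SE 0.12, from 8.16 ± 0.11 to 7.98 ± 0.16, SD, n = 4). None of the 9 passed the adjusted threshold.

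Of the M1 aminopeptidases, 3 were higher and 5 lower of 8 measured, with Npepps, the puromycin-sensitive aminopeptidase gene, at -0.17 (SE 0.15) and Enpep, the glutamyl aminopeptidase gene, at -0.11 (SE 0.13). Without control replicate 2 these were -0.062 and -0.015. The other dipeptidyl and tripeptidyl peptidases, listed together with the carboxypeptidase gene Prcp, had 3 higher and 2 lower. Prcp, which encodes a lysosomal prolylcarboxypeptidase, was at 0.21 (SE 0.16) and Dpp3 at 0.13 (SE 0.18). With 1 array left out Prcp ran from 0.12 (without control replicate 3) to 0.33 (without IDE-KD replicate 1), and Dpp3 from 0.012 (without IDE-KD replicate 2) to 0.27 (without IDE-KD replicate 3). Without IDE-KD arrays 1 and 3, and with all control arrays kept, Prcp was at 0.36 and Dpp3 at 0.46. Ace, the angiotensin-converting enzyme gene, was at background (2.24 and 2.15). In the remaining aminopeptidases and dipeptidases, 3 were higher and 7 lower of 10, with Xpnpep3, a mitochondrial aminopeptidase P gene, at -0.26 (SE 0.15). Metap1, which encodes an enzyme that removes the initiator methionine, read -0.19 (SE 0.11), from 7.09 ± 0.11 to 6.90 ± 0.02 (SD, n = 4). It was the 1 gene of the 42 whose groups did not overlap (exact two-sided permutation p = 0.0286, the smallest possible), against 2.8% of all rows.

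**Figure D4:**
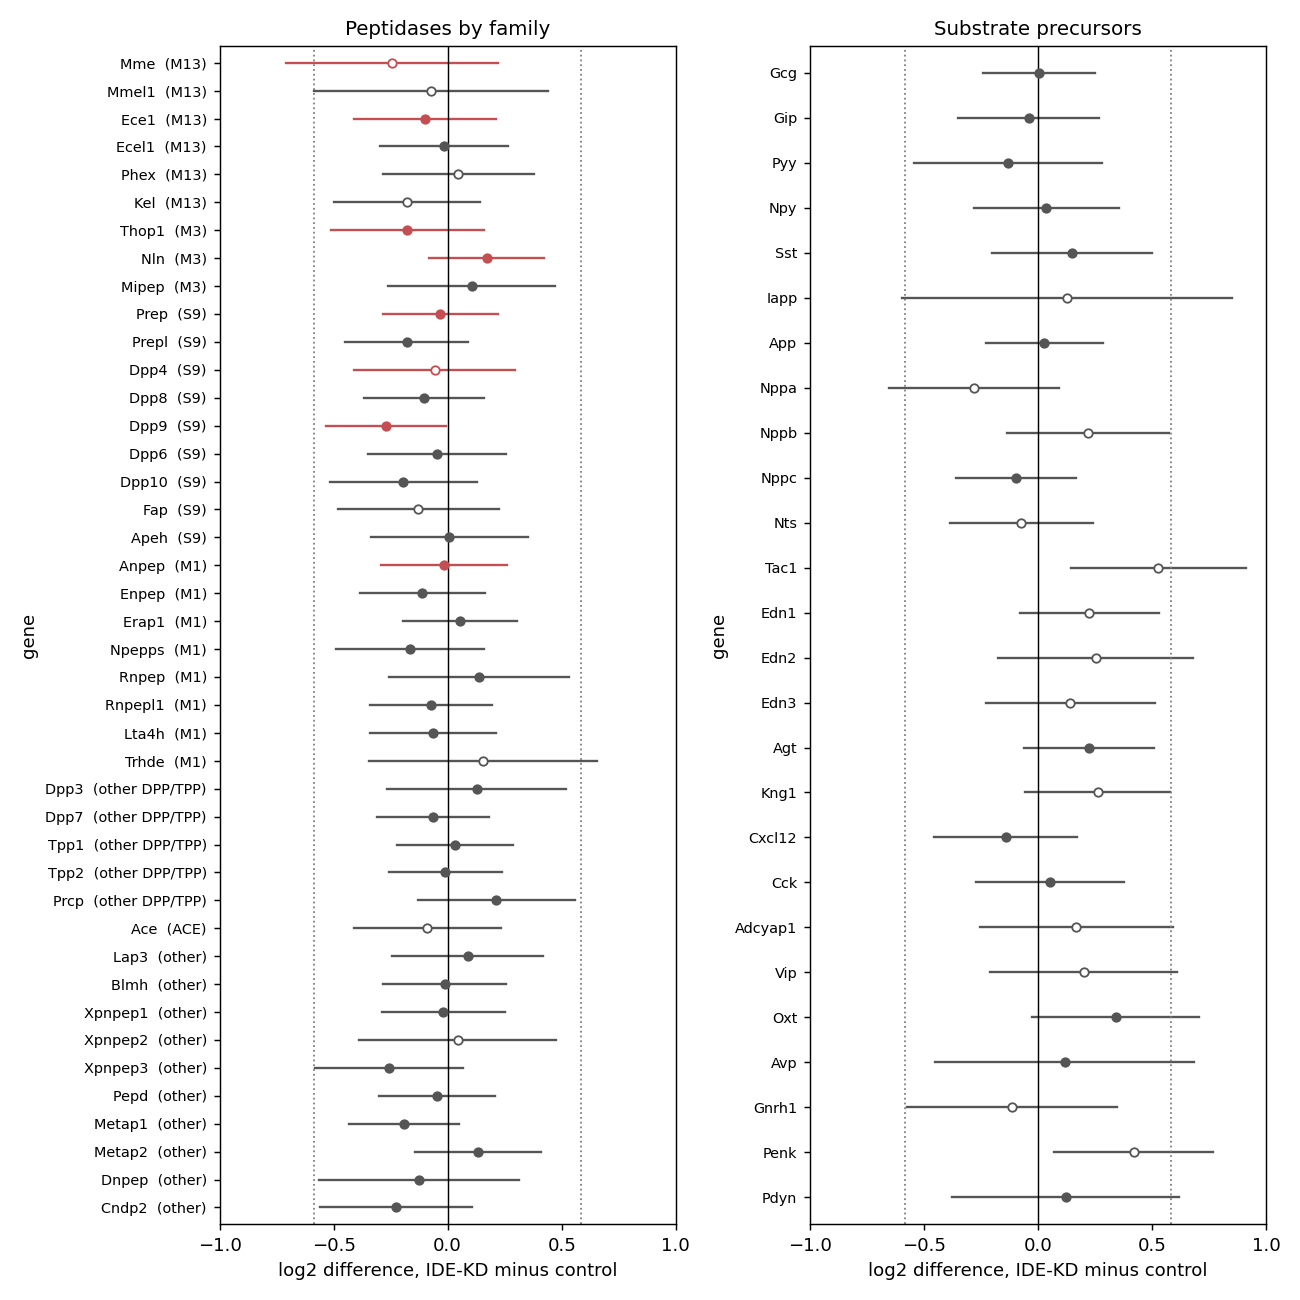
Log2 differences (IDE-KD minus control) with 95% confidence intervals from limma for 42 genes of peptidase families (the 8 measured members in red) and 26 genes of precursors of peptides that such enzymes can cut; open points are genes whose mean lay below the median array control row, and dotted lines mark a 1.5-fold change. The interval of 1 peptidase (Dpp9) and 2 precursors (Tac1 and Penk) leaves out 0, and no point lies past a 1.5-fold change.

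Precursors of peptides that these enzymes are known to cut were read beside them, all 26 measured. Gcg differed by 0.0043 (SE 0.11, 95% confidence interval -0.24 to 0.25). limma called 0 of the 26 at an adjusted p under 0.05 and 2 at an unadjusted p under 0.05, both higher: Tac1, the substance P precursor gene, at 0.53 (SE 0.18) and Penk, the enkephalin precursor gene, at 0.42 (SE 0.16). Of all rows, 2.69% were higher at that level. Both genes were below the median control row in both groups (2.72 and 3.25 for Tac1, 3.34 and 3.76 for Penk), and of the rows below it 4.47% were higher at that level. Oxt, the oxytocin precursor gene, read 5.45 ± 0.31 and 5.79 ± 0.22 (SD, n = 4), a difference of 0.34 (SE 0.17). By sign, 19 precursors were higher and 7 lower (median 0.12), where 11528 of all 22142 rows were higher. The 13 below the median control row had a median of 0.20, against 0.049 for all 9526 rows below it, and the 13 above it a median of 0.036, against -0.017 for all rows above it.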

How the data were processed

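The authors deposited 1 value table of log2 expression values with 1 column per array, and RMA, oligo and limma appear in the submitters' processing notes with no version and no stated role. RMA in its usual form removes background, equalises the arrays' distributions and summarises probes, which would hide a global change in RNA amount and compresses low signals. No source used here names the genome build behind the array's annotation. Of 29129 rows, 22142 transcript clusters were tested, and 6923 array control rows (5222 intron, 1324 exon) and 64 unplaced rows were not. The platform table gave 1 symbol for 19527 tested rows. Each member had 1 row.

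IDE-KD was compared with control over all 8 arrays, 4 a group, by limma 3.58.1 under R 4.3.3 (functions lmFit and eBayes, no covariate), p-values being adjusted by the Benjamini-Hochberg method over the tested rows and called below 0.05. limma's steps were tested on simulated data with independent noise and planted changes larger than the difference of any member. That test does not show how well changes as small as those of the members are found. Each member was also tested by exact two-sided permutation of its 8 values. Levels of different probe sets are not compared with each other, only with the array's control rows. The number of arrays limits precision: the median half-width of a 95% interval was 0.32. Correlations of same-numbered arrays' deviations from their group means were 0.088 to 0.13, not all over 0.1, so the numbers were not treated as pairs.

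The members and lists were chosen with earlier results of these data known. Named were the 10 members and Ide, the 2 genes with the smallest p in each family, Gcg and the 3 precursors with the smallest p, and each member's most similar gene. Others (Dpp6, Dpp8, Dpp10, Apeh and Mipep, and the markers) were named after their values were seen. Alternatives were a replicate block, other variance models, array weights, normalizations, a filter on dim rows and leaving out arrays.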

Additional observations from a re-analysis of the deposited data

Results flagged for a closer look

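Of 44 groups of 4 arrays (22 named genes, 2 groups each), 4 held an array far from the other 3, where chance gives about 1 in 20 groups, and none of them belonged to the 8 measured members. Xpnpep3 had its lowest control value, 6.08, on control array 3 and its highest IDE-KD value, 6.47, on IDE-KD array 4. Enpep had its lowest IDE-KD value, 8.62, on IDE-KD array 1. Tac1 had its highest control value, 3.09, on control array 1, below the median control row.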

How the results depend on the processing

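The count of members, wider peptidases, precursors and tested rows past an adjusted p of 0.05 was 0 under all 15 alternatives, and the count of members without overlap was 0 after both other normalizations. The targeted gene Ide was not called under any alternative either (lowest limma adjusted p 0.152). The counts of calls therefore cannot show that the peptidase genes were unchanged. Of 264 single-gene values under alternatives that can alter a fitted difference, 250 kept their direction; a replicate block, another variance model and the dim-row filter cannot alter it here. The sign turned for Mme (0.085 without IDE-KD arrays 1 and 3), for Anpep (0.0029 after quantile normalization again, -0.099 to 0.039 with 1 array left out), for Dpp4 (-0.17 to 0.037 with 1 array left out), for Ace (-0.18 to 0.031 likewise) and for Gcg (-0.0092 with array medians subtracted, -0.030 to 0.044 with 1 array left out). With the replicate number as a block, which leaves each difference as it was by construction (-0.27 for Dpp9), the adjusted p of Dpp9 was 0.885 and the counts of calls were 0. Of the 8 arrays, 2 correlated best with the array of their own number. With 1 array left out, Mme ran from -0.36 to -0.028, Kel from -0.29 to -0.085 and Prepl from -0.22 to -0.10, while Thop1 minus Nln changed by -0.50 to -0.22 and Dpp4 minus Dpp9 by 0.083 to 0.33. Mme, Kel, Dpp4 and Ace lay near the background signal, where these arrays cannot resolve a difference.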
